A study of Homo sapiens with 20 samples.

Results

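The genes described are 43 genes of the DNA replication machinery, taken by name from a fixed list and found, all 43, among the 20037 protein-coding genes of the RefSeq annotation on chromosomes 1 to 22, X and Y. For each gene every interval of open chromatin within 1 kb of either annotated gene end was recorded in 10 deposited peak lists, with its width and, where given, its score. A gene is called open in a list when at least 1 such interval exists. Chromatin accessibility had been measured by ATAC-seq, in which a transposase cuts and tags exposed DNA, in LOVO and RKO, which are established lines of colon adenocarcinoma cells. The cells expressed either a non-targeting hairpin RNA (shControl) or a hairpin against METTL3 (shMETTL3), the enzyme that methylates adenosine in RNA, and they were untreated or treated with olaparib (OLA), an inhibitor of poly(ADP-ribose) polymerase. Each line had 10 samples: 4 of untreated shControl, 2 of these marked as a second batch, and 2 each of untreated shMETTL3, olaparib shControl and olaparib shMETTL3. Peak lists do not measure the depletion of METTL3. The labels give no olaparib dose or time, and they do not say whether a line is 1 clone or whether the samples of a group came from separate cultures.

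Chromosome replication begins when the origin recognition complex, CDC6 and CDT1 load the MCM2-7 helicase onto DNA before S phase. Kinases then recruit CDC45 and the GINS complex, which switch the helicase on, and DNA polymerases copy both strands, held to the template by the ring PCNA, which is loaded by replication factor C. Many of these genes are transcribed at the G1/S transition under E2F transcription factors, and their chromatin is usually open in dividing cells. PARP inhibitors such as olaparib act on cells in part through the replication of damaged templates.

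The lists hold peaks of a group and not of a sample, so there are no replicate values and no test between groups was possible. The 5 lists per line are untreated shControl in 2 forms (merged intervals without scores, and intervals with scores), untreated shMETTL3 (merged), olaparib shControl (scored) and olaparib shMETTL3 (scored). They held from 6916 intervals (RKO untreated shMETTL3) to 51462 (LOVO olaparib shMETTL3), and the depth behind them is unknown. A shorter list gives fewer open genes, whatever the cause, and in bulk cells fewer cells with an open site cannot be told apart from less opening per cell. Hairpins and treatments were compared between lists of 1 form, save where stated. The pair of untreated shControl lists in each line, which differ in form and perhaps in batch, show how far lists of 1 group can lie apart. Of 11 epithelial marker genes, 5 were open in the merged shControl list of each line, and 9 in LOVO and 5 in RKO in the scored one. EPCAM, KRT8 and CDX2 were open in both shControl lists of both lines, whereas KRT20 and CDX1 were open only in LOVO olaparib shMETTL3. CDH1, KRT19, VIL1 and CLDN4 were closed in every RKO list. In RKO untreated shMETTL3 the single open epithelial marker was KRT8. Of 5 leukocyte markers SPI1 was open in every list but untreated shMETTL3 in both lines, and CD3E in LOVO scored shControl and olaparib shMETTL3. Of 5 fibroblast markers only COL1A1 and COL1A2 were open in any list.

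Nearly all replication genes were open in control cells. In the merged untreated shControl lists 41 of the 43 genes were open in LOVO and 41 in RKO, against 51.5% and 54.9% of all protein-coding genes. In the scored untreated shControl lists the numbers were 41 and 39, against 55.8% and 47.6% of all genes. With olaparib they were 41 and 38 in shControl (53.2% and 52.3% of all genes) and 41 and 42 in shMETTL3 (58.5% and 55.4%). Untreated shMETTL3 stood apart in both lines, with 34 open genes in LOVO and 22 in RKO, where 35.8% and 25.3% of all genes were open. In all 10 lists 19 of the 43 genes (44.2%) were open, against 20.1% of all genes.

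**Figure D1:**
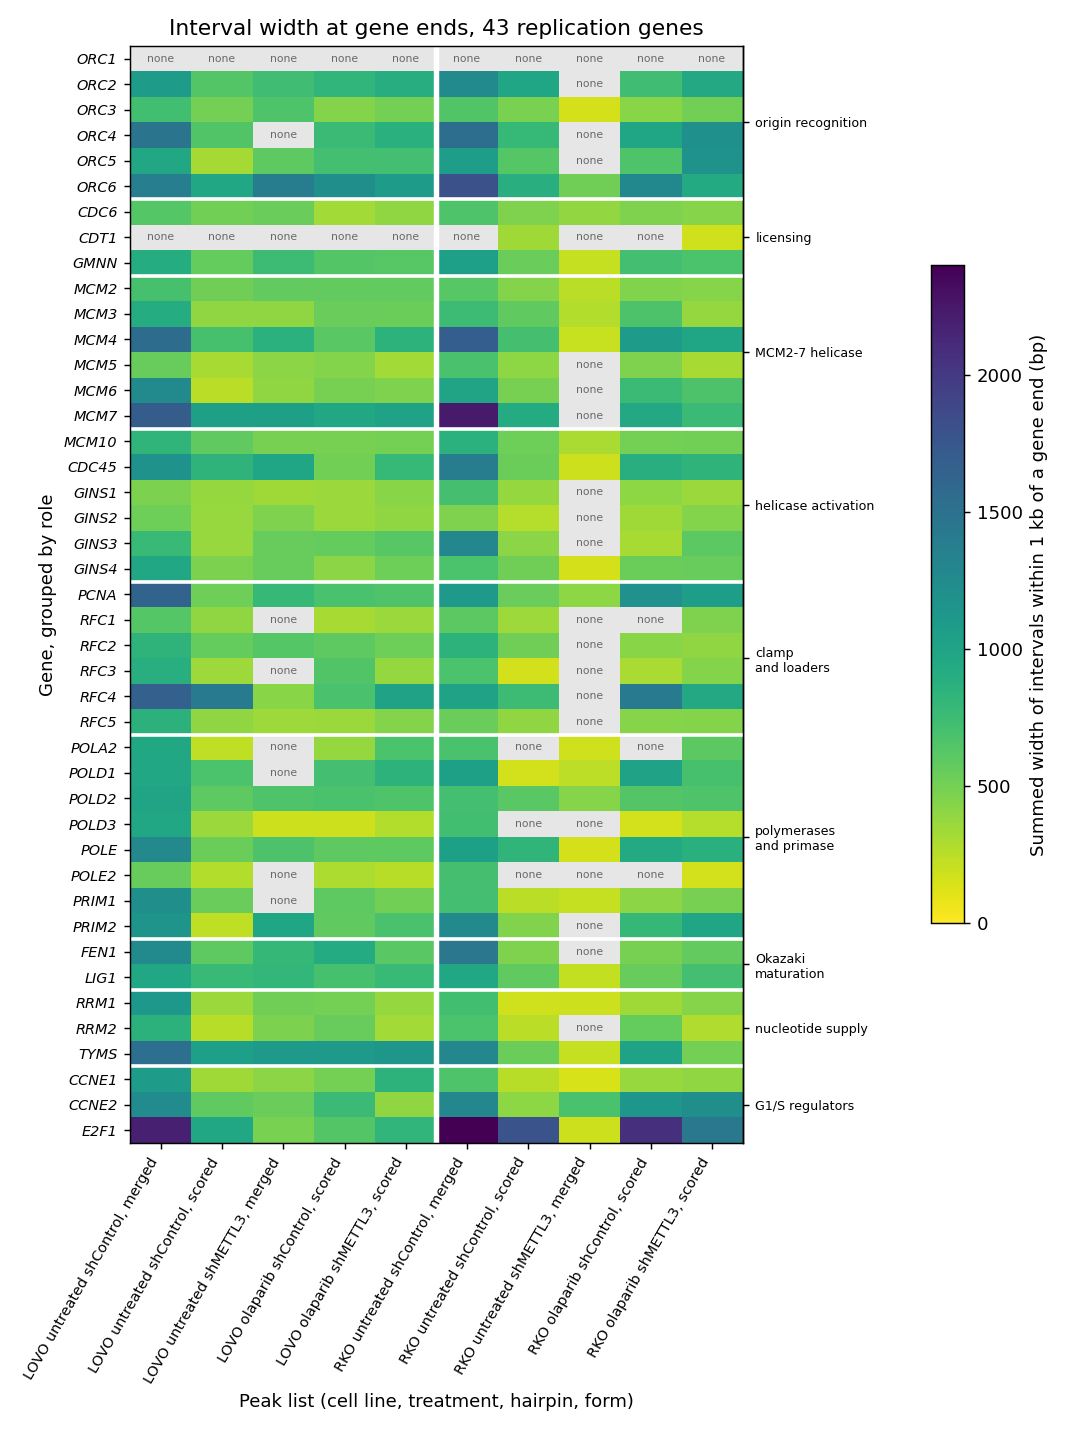
Summed width in bp of the intervals within 1 kb of a gene end (colour) for the 43 genes (rows, grouped by role) in the 10 lists (columns, LOVO left and RKO right); grey cells marked none have no interval. The RKO untreated shMETTL3 column has 21 empty cells, and all 5 RFC genes are among them. In that list 25.3% of all protein-coding genes were open.

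The 19 genes open in all 10 lists came from every role. They were ORC3 and ORC6 of the origin recognition complex, the loading factor gene CDC6 and GMNN, which encodes geminin, the inhibitor of CDT1. From the helicase and its activators they were MCM2, MCM3, MCM4, MCM10, CDC45 and GINS4. From synthesis they were PCNA, POLD2, a subunit of polymerase delta, POLE, the catalytic subunit of polymerase epsilon, and LIG1, the ligase that joins Okazaki fragments. From nucleotide supply and cell cycle control they were RRM1, the large subunit of ribonucleotide reductase, TYMS, which encodes thymidylate synthase, the cyclin E genes CCNE1 and CCNE2, and E2F1. A further 16 genes were open in 9 of the 10 lists.

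A pair of genes fell outside this pattern. CDT1, on chromosome 16 from 88803789 to 88809258 (hg38), had no interval in any LOVO list. In RKO it had 1 interval of 339 bp with a score of 3.67 in scored shControl and 1 of 172 bp with a score of 4.62 in olaparib shMETTL3, and none in the other 3 lists. Both lay in the gene, the first from 910 to 1248 bp after the start site and the second from 920 to 1091 bp, so the 250 bases before the start were not covered in any list. CDT1 itself binds MCM2-7 and brings it to the origin. Those uncovered 250 bases (chr16:88803539-88803788, plus strand, RefSeq GRCh38.p14) are shown 5′ to 3′ because no list held an interval on them, with capitals for an E2F-type word of 8 bases (TTTCCCGC, TTTCGCGC, TTTGCCGC or TTTGGCGC, either strand) from 35 to 28 bases before the start.
CDT1: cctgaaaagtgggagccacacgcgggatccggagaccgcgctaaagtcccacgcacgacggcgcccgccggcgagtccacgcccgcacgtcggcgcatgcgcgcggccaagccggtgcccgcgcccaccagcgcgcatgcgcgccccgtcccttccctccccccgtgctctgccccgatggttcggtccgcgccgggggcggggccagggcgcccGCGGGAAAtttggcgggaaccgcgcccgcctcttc

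ORC1, the largest subunit of the origin recognition complex, was closed in all 10 lists by the rule, but its annotated gene end lies 5080 bp from the start site of the RefSeq promoter table. Within 1 kb of that start ORC1 had an interval in all 10 lists. In LOVO these spanned 1278 bp in merged shControl, 1261 bp in scored shControl, 1175 bp in untreated shMETTL3, 714 bp in olaparib shControl and 866 bp (3 intervals) in olaparib shMETTL3. In RKO they spanned 1329, 496, 274, 917 and 487 bp (2 intervals) in the same order of lists. ORC1 thus had open chromatin near its start in every list, although the rule, which uses gene ends, counts none. In LOVO the intervals covered all 250 bases before the start in each list. In RKO they covered 250, 0, 0, 217 and 0 of these bases, so that in 3 RKO lists, untreated shMETTL3 among them, they lay near these bases and not on them. The site is shared with PRPF38A, whose gene overlaps the 250 bases before the ORC1 start.

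Most intervals of the replication genes sat at their starts. The promoter table gave a start for 38 of the 43 genes. In every list, each open gene among these had an interval within 1 kb of its start, for example 36 of 36 in either merged shControl list. This follows in part from the rule, because in most of these genes the start is a gene end. At PRIM2 the interval near the start is not the one counted at its gene end. The share over all genes was not computed. The merged shControl intervals crossed the start site itself in 35 genes in each line. In 17 of the 43 genes an interval also lay within 1 kb of an end of another protein-coding gene, such as RARS2 beside ORC3, TPRA1 beside MCM2, PRKDC beside MCM4 and TMEM258 beside FEN1, and the opening there cannot be assigned to 1 of the genes. Inside the genes, away from the ends, the 43 genes together held between 2 intervals (RKO untreated shMETTL3) and 18 (olaparib shMETTL3 in each line).

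ORC3 and MCM3 ranked high by score in both lines. The score is the authors', its kind is not stated, and it is used here to rank peaks within a list. ORC3 had the highest score of the 43 genes in 5 of the 6 scored lists: 19.6 and 31.8 in LOVO olaparib shControl and shMETTL3, and 19.8, 19.2 and 22.3 in RKO untreated shControl, olaparib shControl and olaparib shMETTL3. In LOVO untreated shControl MCM3 scored 25.1 and ORC3 24.6. MCM3, a subunit of the helicase ring, stood above 95.6% of all peaks of the list or higher in each scored list. At the low end in LOVO stood PRIM2 in untreated shControl (5.66), and GINS3 and POLA2 in olaparib shControl and shMETTL3 (6.005 and 7.85). In RKO they were RRM2 in olaparib shControl (5.597) and CDT1 in the other scored lists. The PRIM2 score is of the interval at its left gene end. In the same list the interval near the PRIM2 start of the promoter table scored 11.8. The median of the replication genes was 12.5 in LOVO and 7.66 in RKO untreated shControl, beside 10.8 and 7.65 for all open genes. In that RKO list the replication genes thus lay at the middle of the open genes. In RKO with olaparib their medians were 8.75 in shControl and 9.85 in shMETTL3, beside 8.25 and 9.19. In LOVO with olaparib they were 10.4 and 12.8, beside 9.76 and 11.5.

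**Figure D2:**
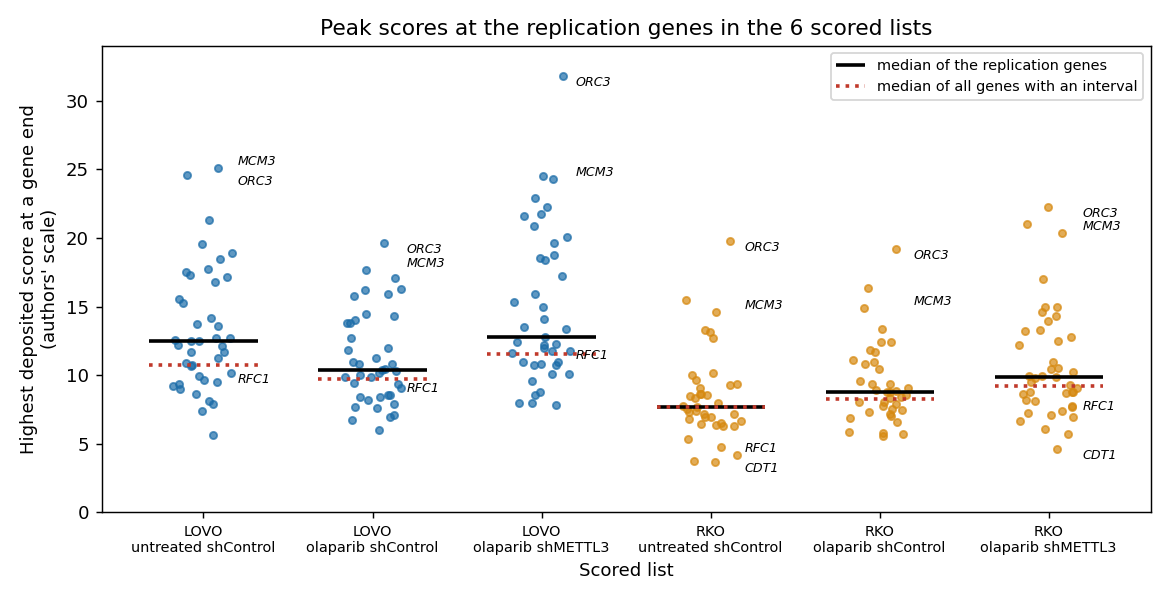
Highest deposited score at a gene end (authors' scale, vertical axis) of each open replication gene (points) in the 6 scored lists, with the median of these genes (solid line) and of all open genes (dotted line). ORC3 lies at or near the top of every list, and the medians of the replication genes lie between 7.66 and 12.8.

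The first comparison asked how open chromatin at these genes differed with METTL3 depletion in untreated cells. In LOVO 7 of the 41 open genes (17.1%) had no interval with shMETTL3, against 31.2% of all open genes. In RKO 19 of 41 (46.3%) had none, against 54.1% of all open genes. No replication gene gained an interval, out of 2 that were closed in shControl in each line, where 0.813% and 0.321% of all closed genes did. In both lines the share of replication genes without an interval was below the share over all genes, and no replicate error is at hand for either. In the LOVO lists ORC4, RFC1, RFC3, POLA2, POLD1, POLE2 and PRIM1 lost their interval. Of these 7, 4 were genes of polymerases or primase, a role with 8 open genes.

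The RKO losses fell on most steps of replication, the licensing and G1/S genes aside. They were 19 of 41 open genes (46.3%), against 54.1% of all open genes. Each role holds few genes, and a difference between roles was not tested. All 5 genes of the clamp loader, RFC1, RFC2, RFC3, RFC4 and RFC5, were without an interval, while PCNA, the clamp they load, kept one of 409 bp (1108 bp in shControl). Of the MCM2-7 helicase genes, MCM5, MCM6 and MCM7 lost theirs and MCM2, MCM3 and MCM4 kept them at 247, 273 and 199 bp. Of the GINS genes, GINS1, GINS2 and GINS3 were without an interval and GINS4 kept one of 150 bp. ORC2, ORC4 and ORC5 lost theirs and ORC3 and ORC6 did not. POLD3, POLE2, PRIM2, the flap endonuclease gene FEN1 and RRM2, the small subunit of ribonucleotide reductase, were also without an interval. The 3 G1/S regulators, CCNE1, CCNE2 and E2F1, and the 2 licensing genes open in shControl, CDC6 and GMNN, kept theirs in both lines.

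**Figure D3:**
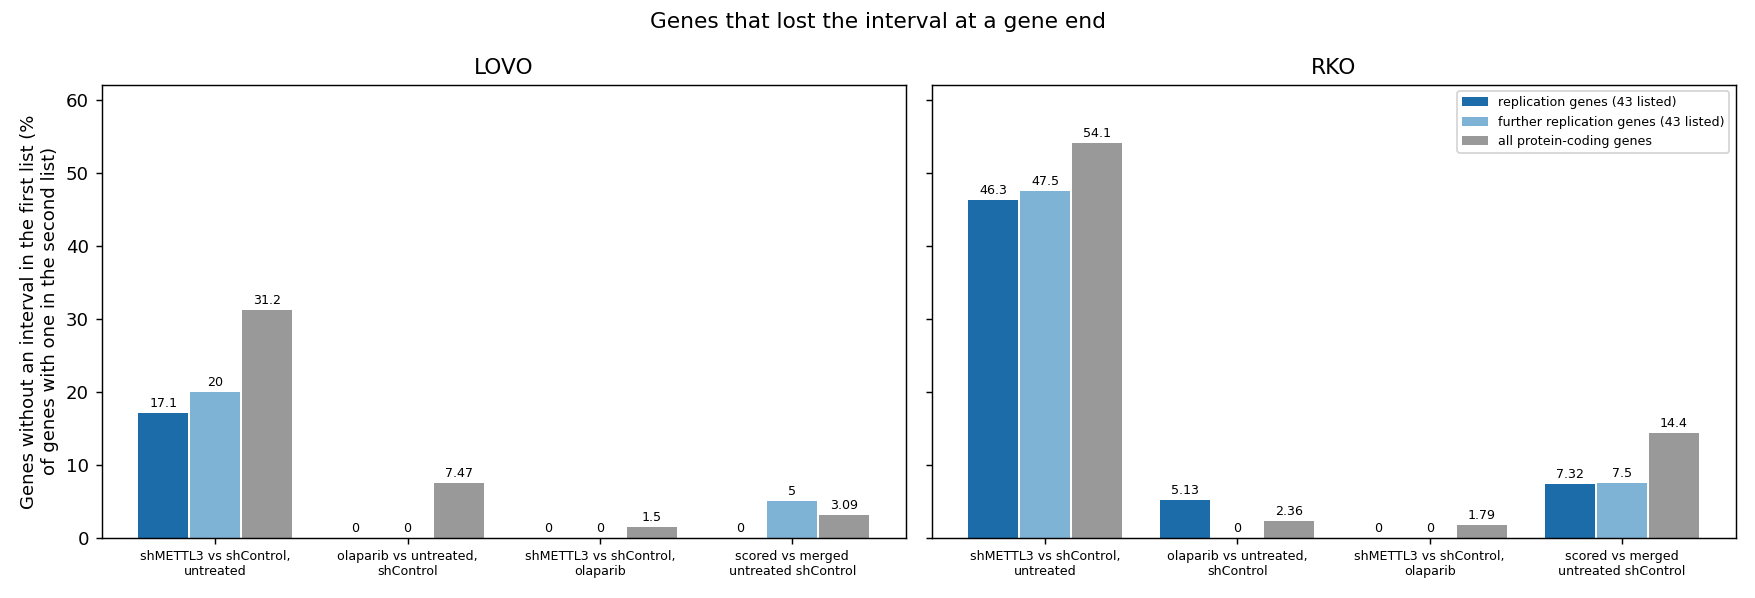
Percent of genes open in the reference list (named second) that had no interval in the list named first, for the replication genes, 43 further replication genes and all protein-coding genes, in LOVO (left) and RKO (right). With shMETTL3 untreated the values are 17.1, 20 and 31.2% in LOVO and 46.3, 47.5 and 54.1% in RKO.

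ORC4, RFC1, RFC3 and POLE2 were lost in both lines, 4 of the 41 genes open in both shControl lists, against 20.7% of all genes open in both. RFC1 encodes the large subunit of the clamp loader and lies on chromosome 4 from 39287456 to 39366362. Its interval was 634 bp in LOVO merged shControl, 396 bp in scored shControl, absent in untreated shMETTL3, 316 bp in olaparib shControl and 362 bp in olaparib shMETTL3. In RKO it was 603 bp, 355 bp (score 4.16, above 4.81% of the list), absent, absent and 461 bp. RFC1 was thus missing with untreated shMETTL3 in both lines and, in RKO, also with olaparib in shControl cells. RFC3, a small subunit of the loader on chromosome 13 from 33818149 to 33977377, had 891, 350, 0, 647 and 383 bp in LOVO and 679, 162, 0, 306 and 441 bp in RKO, in the same order of lists. Untreated shMETTL3 was the single list without it in each line.

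POLE2, the second subunit of polymerase epsilon, on chromosome 14 from 49643555 to 49688214, had 556, 272, 0, 291 and 260 bp in LOVO. In RKO it had 709 bp in merged shControl, none in scored shControl, untreated shMETTL3 or olaparib shControl, and 167 bp in olaparib shMETTL3. The RKO control lists therefore differ at POLE2, and its loss there rests on the merged control. ORC4, on chromosome 2 from 147930396 to 148021551, had 1472, 652, 0, 764 and 878 bp in LOVO and 1535, 790, 0, 993 and 1194 bp in RKO. In the merged control the ORC4 interval ran from 1367 bp after the start to 104 bp before it in LOVO, and in scored shControl of both lines the part left lay wholly in the gene, at least 516 bp from the start. MBD5, which overlaps the 250 bases before the ORC4 start, shares this region.

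**Figure D4:**
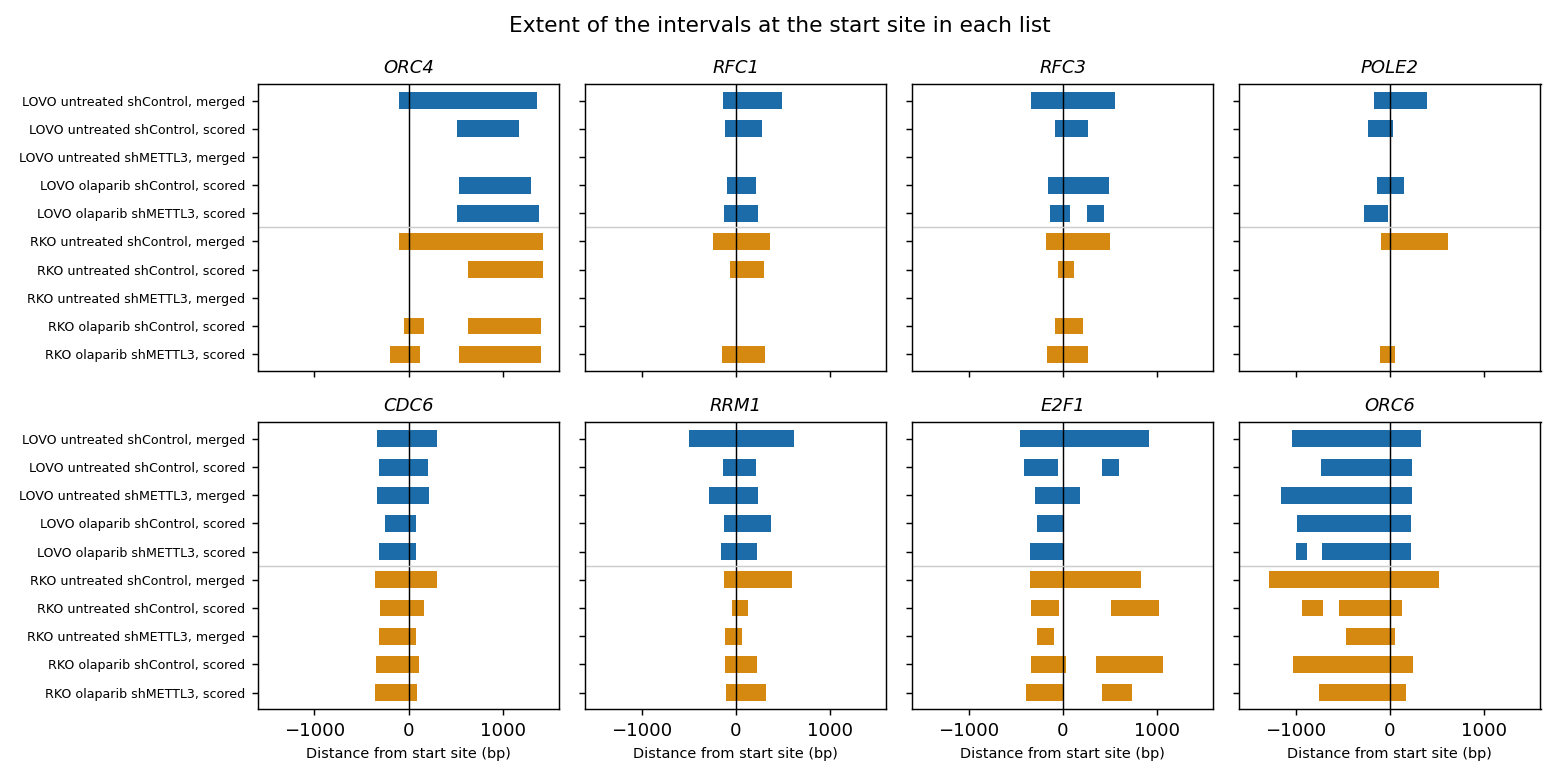
Extent of the deposited intervals (bars, LOVO blue and RKO orange) along the distance from the start site in bp (horizontal axis; negative is upstream, and the far end of E2F1 is not drawn) in the 10 lists (rows) for ORC4, RFC1, RFC3 and POLE2, lost with shMETTL3 in both lines, and CDC6, RRM1, E2F1 and ORC6, open in every list. The CDC6 bars keep nearly the same place in all 10 lists.

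The 250 bases before the start of 3 genes lost in both lines are shown (RefSeq, GRCh38.p14, 5′ to 3′ on the gene's strand), because they are the stretch whose cover was missing with shMETTL3. RFC1 lies at chr4:39366363-39366612 (minus strand), RFC3 at chr13:33817899-33818148 (plus strand) and POLE2 at chr14:49688215-49688464 (minus strand). Capitals mark matches to one of the same E2F-type words or to the CCAAT box (CCAAT), on either strand.
RFC1: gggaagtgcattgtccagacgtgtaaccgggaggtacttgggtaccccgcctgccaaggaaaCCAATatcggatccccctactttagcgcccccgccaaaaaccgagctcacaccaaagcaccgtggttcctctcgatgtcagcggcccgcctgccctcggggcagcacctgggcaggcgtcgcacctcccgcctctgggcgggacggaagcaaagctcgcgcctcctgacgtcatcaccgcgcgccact
RFC3: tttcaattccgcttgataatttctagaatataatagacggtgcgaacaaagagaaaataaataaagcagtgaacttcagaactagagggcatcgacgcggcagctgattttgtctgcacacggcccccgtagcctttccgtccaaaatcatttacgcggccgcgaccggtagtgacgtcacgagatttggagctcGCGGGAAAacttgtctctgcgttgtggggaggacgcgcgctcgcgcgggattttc
POLE2: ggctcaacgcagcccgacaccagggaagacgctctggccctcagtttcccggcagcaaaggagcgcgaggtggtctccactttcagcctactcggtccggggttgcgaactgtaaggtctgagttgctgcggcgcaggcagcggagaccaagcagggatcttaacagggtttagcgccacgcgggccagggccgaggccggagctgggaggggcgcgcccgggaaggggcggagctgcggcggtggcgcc
Of these bases merged shControl covered 139 at RFC1, 250 at RFC3 and 165 at POLE2 in LOVO, and 238, 177 and 89 in RKO. Untreated shMETTL3 covered 0 at each gene in both lines. RFC1 holds 1 CCAAT box, RFC3 holds 1 E2F-type word from 55 to 48 bases before the start, and POLE2 holds neither in this window.

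The genes open in all 10 lists differed in how far their intervals shrank. By summed width over the 10 lists E2F1 (12992 bp) and ORC6 (11438 bp) were the widest of the 43 genes, and RRM1 (4732 bp) and CDC6 (4845 bp) the narrowest of those open in every list. CDC6, on chromosome 17 from 40287879 to 40304657, measured 636, 515, 549, 333 and 401 bp in LOVO and 657, 467, 387, 460 and 440 bp in RKO, in the same order of lists. Its untreated shMETTL3 interval covered all 250 bases before the start in both lines, as did each other list. RRM1, on chromosome 11 from 4094685 to 4138932, measured 1119, 358, 520, 503 and 379 bp in LOVO and 723, 173, 185, 340 and 432 bp in RKO. At RRM1 the cover of these bases was 250 in LOVO and 113 in RKO untreated shMETTL3.

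E2F1, the transcription factor gene of the pathway, on chromosome 20 from 33675477 to 33686385, had 2187, 968, 486, 646 and 822 bp in LOVO and 2394, 1789, 183, 2079 and 1438 bp in RKO. In every list but untreated shMETTL3 an interval also lay at its far end, near NECAB3, at least 11378 bp after the start. With shMETTL3 this far interval was missing in both lines and the one at the start remained. ORC6, on chromosome 16 from 46689659 to 46698394, had 1370, 966, 1385, 1206 and 1072 bp in LOVO and 1807, 898, 522, 1280 and 932 bp in RKO. It was the single open gene of the list not narrower with shMETTL3 in LOVO, and VPS35 starts beside it. The same 250 bases of these 4 genes are shown for comparison with the lost genes, with capitals as above.
CDC6: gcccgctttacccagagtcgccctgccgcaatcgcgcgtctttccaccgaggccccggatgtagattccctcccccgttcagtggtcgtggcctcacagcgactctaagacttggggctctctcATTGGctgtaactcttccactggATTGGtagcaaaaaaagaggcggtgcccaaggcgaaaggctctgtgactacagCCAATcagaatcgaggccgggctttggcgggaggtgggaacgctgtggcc
RRM1: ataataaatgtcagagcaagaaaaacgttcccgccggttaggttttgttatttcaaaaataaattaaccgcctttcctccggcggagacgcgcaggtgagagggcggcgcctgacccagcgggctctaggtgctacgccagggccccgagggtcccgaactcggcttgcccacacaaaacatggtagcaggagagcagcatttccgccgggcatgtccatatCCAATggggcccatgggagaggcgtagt
E2F1: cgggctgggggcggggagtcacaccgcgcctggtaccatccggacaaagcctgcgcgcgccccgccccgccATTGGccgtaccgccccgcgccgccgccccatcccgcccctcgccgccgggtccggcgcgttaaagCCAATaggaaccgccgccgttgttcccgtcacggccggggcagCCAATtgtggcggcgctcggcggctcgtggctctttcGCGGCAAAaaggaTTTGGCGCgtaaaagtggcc
ORC6: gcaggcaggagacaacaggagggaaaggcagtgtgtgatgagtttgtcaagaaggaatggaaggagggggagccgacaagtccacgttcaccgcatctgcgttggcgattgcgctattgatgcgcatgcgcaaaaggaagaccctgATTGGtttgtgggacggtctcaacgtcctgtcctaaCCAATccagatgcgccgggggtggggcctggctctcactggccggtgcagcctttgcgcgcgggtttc
CDC6 (chr17:40287629-40287878, plus strand) holds 3 CCAAT boxes, RRM1 (chr11:4094435-4094684, plus strand) 1 and ORC6 (chr16:46689409-46689658, plus strand) 2. None of these 3 holds one of the E2F-type words searched in this window. Related spellings such as TTTGGCGG, present in the CDC6 and CDT1 bases shown, were not searched. E2F1 (chr20:33686386-33686635, minus strand) holds 3 CCAAT boxes and 2 E2F-type words, from 33 to 26 and from 20 to 13 bases before its own start.

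E2F-type words were found before the start of 13 of the 38 replication genes with a promoter entry (34.2%), against 3.72% of 15842 protein-coding promoters of the same length. The E2F-type matches before MCM6 overlap each other. The 13 were ORC3, CDT1, MCM3, MCM6, MCM7, GINS2, PCNA, RFC3, POLA2, POLE, LIG1, TYMS and E2F1. CCAAT boxes stood in 21 of 38 (55.3%, against 34.5%), and the GC box GGGCGG in 26 of 38 (68.4%, against 56%), each searched on both strands. The word TTTGAA, the core of the cell cycle homology region of G2/M genes, stood in 1 of 38, RRM1 (2.63%, against 10.8%). A match is a description of letters and not a site of binding. Only the listed words were searched, so a gene without a match may hold another E2F-type spelling. With shMETTL3, 2 of 12 open genes with an E2F-type word lost their interval in LOVO and 4 of 12 in RKO (all genes with the word: 27.9% and 51.4%). Among those without the word the counts were 5 of 24 and 13 of 24 (all genes: 30.4% and 53.7%). These counts are small, and the difference between genes with and without the word was not tested.

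Most genes that kept an interval with shMETTL3 had a smaller summed width, which also falls when another interval of the gene is missing. Such an interval was missing at E2F1 in both lines and at MCM6 and RFC4 in LOVO, for example. In LOVO 33 of the 34 kept genes were narrower than in shControl, with a median width ratio of 0.623 (all kept genes 0.678). The ratio ran from 0.187 at POLD3, a subunit of polymerase delta (957 to 179 bp), to 1.01 at ORC6. Of the 34, 10 were at least 2-fold narrower, against 23.2% of all genes open in both lists. In RKO all 22 kept genes were narrower, with a median ratio of 0.243 (all kept genes 0.308), from 0.0764 at E2F1 to 0.616 at POLD2. There 19 of 22 were at least 2-fold narrower, against 83.4% of all genes. No replication gene was 2-fold wider in LOVO (0.0282% of all genes) or in RKO (0.0198%).

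Fewer of the remaining intervals crossed the start site in RKO than in LOVO. Of the 23 RKO shMETTL3 intervals 22 lay wholly inside the control interval, and of the 35 in LOVO 27 did. Of 19 with a known start, 10 crossed the start, 7 lay upstream (MCM3, CDC45, POLD1, POLE, LIG1, CCNE1 and E2F1) and 2 downstream (GMNN and TYMS). In LOVO 28 of 30 crossed it, the exceptions being PRIM2 and MCM7. For these positions the share over all genes was not computed. The kept replication genes had a median summed width of 209 bp in RKO and 564 bp in LOVO with shMETTL3. The part of width in the difference between the lines was not tested. Of the 250 bases before the start, at least 1 was covered in 17 of 38 replication genes in RKO untreated shMETTL3 and all in 4, against 36 and 26 in merged shControl. Over all promoters the share with any cover was 20.5% with shMETTL3 and 51.3% in shControl, and the share covered whole was 4.26% and 36.3%. In LOVO untreated shMETTL3 any base was covered in 29 of 38 replication genes and all in 21, against 34.1% and 22.7% of all promoters.

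**Figure D5:**
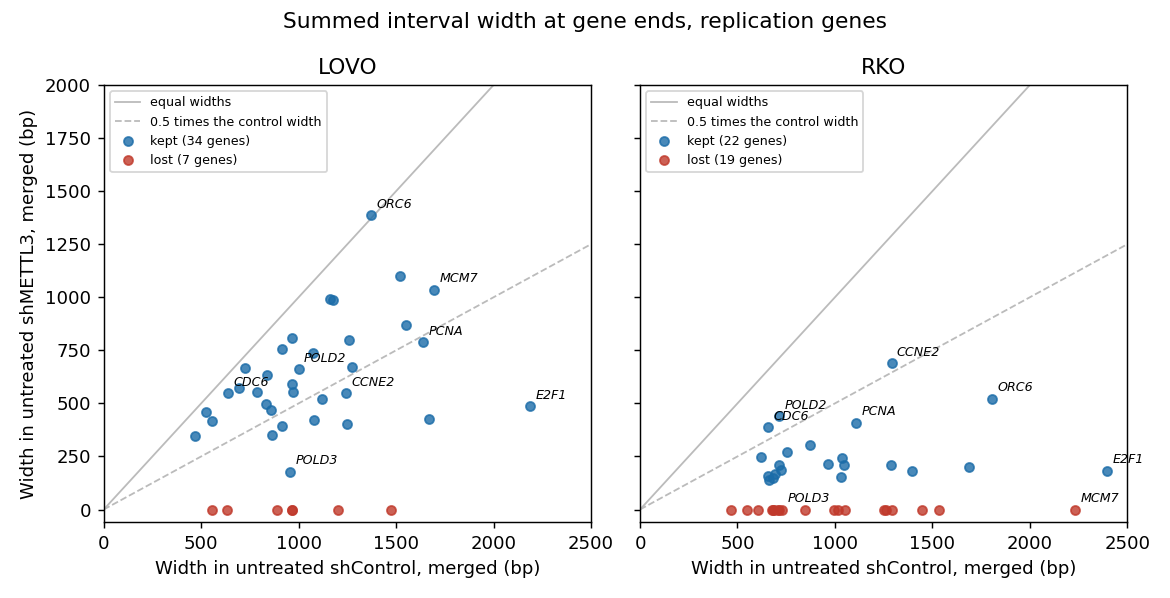
Summed interval width at the gene ends in untreated shMETTL3 (vertical axis, bp) against untreated shControl (horizontal axis, bp), both merged lists, for the 41 replication genes open in shControl; red points at 0 lost their interval. In RKO every kept gene lies below the line of equal widths, and 19 of 22 below the dashed line at 0.5 times the control width.

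Lost and kept genes overlapped in their control values. In RKO the merged control width of the 19 lost genes ran from 467 to 2231 bp (median 845) and that of the 22 kept genes from 620 to 2394 bp (median 917.5). A score was at hand in scored shControl for 17 of the 19 lost genes, not for POLD3 and POLE2, and for 21 of the 22 kept genes, not for POLA2. There the lost genes had a median score of 7.35, from 4.16 at RFC1 to 13.3 at GINS2, and the kept genes 8.47, from 3.72 at POLD1 to 19.8 at ORC3. In LOVO the medians were 9.19 for the 7 lost and 12.7 for the 34 kept genes. All genes showed the same order, with 6.82 and 8.72 in RKO and 8.52 and 12.8 in LOVO. The part of peak strength and list length in the losses was not tested. GINS2 and POLD1 show the overlap: GINS2, with a score of 13.3, was lost in RKO, and POLD1, with 3.72, was kept.

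The spread within a group was read from the scored and merged shControl lists without treatment. In LOVO all 41 open genes had an interval in the scored list too (lost over all genes 3.09%). In RKO 3 of 41 were closed in it, POLA2, POLD3 and POLE2 (all genes 14.4%), all of them subunits of polymerases. CDT1 was open in the scored and not in the merged RKO list, 1 of 2 closed genes (all closed genes 1.5%), and in LOVO 0 of 2 were gained (12.2%). The losses with shMETTL3 were 7 in LOVO and 19 in RKO, but those lists were much shorter, with 16417 and 6916 intervals. Merged shControl held 33474 and 27978, and scored shControl 41431 and 21210. A shorter list gives fewer open genes, so the differences between control lists cannot be used to judge the shMETTL3 losses. Widths differed more between the forms: the scored interval was narrower in each gene open in both, with a median ratio of 0.488 in LOVO (all genes 0.588) and 0.53 in RKO (0.566). At least 2-fold narrower were 22 of 41 genes in LOVO (33.9% of all genes) and 17 of 38 in RKO (39.9%), and none was 2-fold wider (0.15% and 0.106%). Widths are therefore not compared across forms as an effect of a hairpin or of olaparib. POLA2, the second subunit of polymerase alpha, shows how the lists cross: in RKO it was open in merged shControl (691 bp) and untreated shMETTL3 (169 bp) and closed in scored and olaparib shControl.

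Next, treated and untreated cells with the control hairpin were set side by side for olaparib. In LOVO none of the 41 open replication genes lost its interval, against 7.47% of all genes, and none of the 2 closed genes gained one (3.49%). In RKO 2 of 39 lost it, CDT1 and RFC1 (2.36% of all genes), and 1 of 4 gained one, POLD3 (11.1%). These RKO genes had among the lowest scores in the untreated list, 3.67 at CDT1 and 4.16 at RFC1, and POLD3 was open in merged shControl (729 bp). Widths moved both ways, with a median ratio of 1.1 in LOVO (all genes 0.984) and 1.16 in RKO (1.24). At least 2-fold wider were ORC5, PRIM2 and RRM2 of 41 in LOVO (3.02% of all genes) and PCNA, POLD1, RRM2 and CCNE2 of 37 in RKO (14.1%). RRM2 alone was wider in both, from 260 to 555 bp in LOVO and from 245 to 563 bp in RKO, but merged shControl had 859 and 682 bp. The PRIM2 widths in LOVO, from 232 to 582 bp, are those at its left gene end. Near the PRIM2 start of the promoter table the same lists had 651 and 587 bp, so no widening was seen there. In LOVO RFC4 was at least 2-fold narrower, from 1402 to 688 bp (3.55% of all genes), and no gene was in RKO (0.773%).

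The hairpins were also compared under olaparib, to see whether the losses found in untreated cells recurred with the drug. The shMETTL3 list was the longer one here, with 51462 against 32192 intervals in LOVO and 35455 against 25855 in RKO. In untreated cells it was the shorter one, with 16417 against 33474 and 6916 against 27978. A longer list gives more open genes, so whether the drug changed the losses cannot be told from these counts. No replication gene lost its interval, out of 41 in LOVO and 38 in RKO (1.5% and 1.79% of all genes). None of 2 closed genes was gained in LOVO (12.9%), and 4 of 5 were in RKO, CDT1, RFC1, POLA2 and POLE2 (8.38%). Each of these 4 was open in an untreated RKO shControl list. RFC1 (603 bp), POLA2 (691 bp) and POLE2 (709 bp) were open in the merged list, and CDT1 (339 bp) in the scored list. Of the 9552 closed genes behind the 8.38%, 7097 were open in no list at all. In RKO olaparib shMETTL3 POLA2 had 2 intervals of 604 bp in sum and POLE2 1 of 167 bp. Widths differed little, with a median ratio of 1.05 in LOVO (all genes 1.09) and 0.995 in RKO (1.02). TYMS in RKO was the single gene at least 2-fold narrower, from 1015 to 499 bp (2.8% of all genes), none was in LOVO (1.53%), and none was 2-fold wider (6.53% and 4.82%).

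All replication genes lost with shMETTL3 were open in the olaparib shMETTL3 list of the same line, 7 of 7 in LOVO and 19 of 19 in RKO, where 94.4% and 93.4% of all genes lost in the line were. These lists differ in form from the untreated shMETTL3 lists as well as in treatment, so the treatment and the form cannot be told apart. Of genes closed in untreated shMETTL3, 7 of 9 replication genes in LOVO and 20 of 21 in RKO were open in olaparib shMETTL3, against 35.4% and 40.4% of all genes closed in untreated shMETTL3, most of which were closed in shControl too. No replication gene open in untreated shMETTL3 was closed in olaparib shMETTL3, of 34 in LOVO (0.279% of all genes) and 22 in RKO (0.394%). Across these forms 2 of 34 genes in LOVO, RFC4 and CCNE1, were at least 2-fold wider (4.82%) and 15 of 22 in RKO (61.7%), and none was 2-fold narrower (2.14% and 0.0198%). The olaparib shControl list held 7 of the 7 and 17 of the 19 lost genes, against 84.7% and 87.4% of all lost genes. The replication genes lay near these shares of all lost genes.

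PRIM2, the large subunit of primase, needs its own account. Its left end, at 57221540 on chromosome 6, lies beside RAB23, and the start in the promoter table lies 93265 bp inside the gene. Within 1 kb of that start PRIM2 had an interval in 9 of the 10 lists, each upstream of the start and none on the 250 bases before it. Those widths were 659, 651, 709, 587 and 601 bp in LOVO and 226, 266, 0, 322 and 326 bp in RKO, in the order merged shControl, scored shControl, untreated shMETTL3, olaparib shControl and olaparib shMETTL3. Both ways of placing PRIM2 thus gave the same missing list, RKO untreated shMETTL3, and in LOVO its start interval was not narrower with shMETTL3.

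A list of 43 further replication genes, among them RPA subunits, the S-phase kinase CDC7 and chromatin assembly factors, was counted in the same way. With shMETTL3 8 of 40 open genes (20%) were lost in LOVO and 19 of 40 (47.5%) in RKO, beside the same 31.2% and 54.1% of all genes. All 8 lost in LOVO were lost in RKO as well, 8 of 40 against 4 of 41 of the genes above and 20.7% of all genes open in both controls. They were ATAD5, which unloads PCNA, CCNA2, the cyclin A gene, CHAF1B, DNA2, E2F2, MTBP, POLE4 and TOPBP1. With olaparib in shControl none of them was lost, out of 39 and 38. Under olaparib, shMETTL3 against shControl gave 0 losses of 40 in LOVO and of 41 in RKO. Gains with olaparib were 1 of 4 closed genes in LOVO and 3 of 5 in RKO, and with shMETTL3 under olaparib 1 of 3 and 0 of 2.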

How the data were processed

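Peaks of ATAC-seq libraries from LOVO and RKO cells were used as the authors deposited them: 10 lists, each for a group. The submitters' processing notes name hg38, MACS2 2.2.7.1, DiffBind 3.0.15, Bowtie2 2.4.2 and Trim Galore 0.6.6, with no roles. Read shifting, read filters and the pooling of samples were not given in the sources used here. Scores in the 6 scored lists are the authors' deposited score, of a kind not stated; their peak names are those of replicate 1, and neighbouring intervals can be parts of 1 peak with 1 score. The 4 merged lists hold intervals only. Interval positions (another deposited value, start and end) were read as hg38 and counted from 1. Which untreated shControl list holds the second batch is not given.

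Genes came from RefSeq on GRCh38.p14, the assembly hg38 names. An interval counted when at least 1 bp lay within 1000 bp of either gene end (Python 3.11.15, pandas 2.3.3). A gene is lost when open in the reference list only and gained when open in the other list only; widths are sums over the counted intervals. With 1 list per group no p-value was computed. The percentages beside the counts are over all protein-coding genes. Depth is unknown. The code was tested on simulated lists with known losses. Members, lists and comparisons were chosen with earlier results of these data known. Every gene is named at least once; values in each list are given for genes lost or gained in both lines, genes open in no list or 1 line, the 2 widest of all, and the 2 narrowest of those open in every list. PCNA, MCM3, PRIM2, POLA2, RRM2 and other values were added after they were seen.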

Additional observations from a re-analysis of the deposited data

How the results depend on the processing

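No paired analysis was possible because each list stands for a group and carries no replicate, and no sample could be left out for the same reason. The counts of genes lost with untreated shMETTL3 stayed within 1.5 times of 7 (LOVO) and 19 (RKO) with a distance of 500 bp, an overlap of at least 100 bp, the start end alone (38 genes) and the other shControl list, and so did the 19 genes open in all 10 lists under the first 3. Over all results 62 of the values under another setting stayed within that range and 17 moved. A count can stay in range while its genes change. With intervals at or above the median score of their list, olaparib in RKO lost MCM4 and POLE (16.5% of all genes) in place of CDT1 and RFC1. With the other shControl list it lost RFC1, POLA2 and POLE2 (7.08%). With a distance of 500 bp, olaparib in RKO lost 1 gene (2.86% of all genes) and gained 3 (11.1%), in place of 2 and 1. The scored control then lost 2 genes in LOVO (4.24%) and 5 in RKO (17.3%), in place of 0 and 3. In RKO it gained 0 (1.33%) in place of 1. With 100 bp of overlap olaparib in RKO lost 1 (2.42% of all genes) and the scored RKO control gained 0 (1.46%). The comparison of olaparib shMETTL3 with untreated shMETTL3 was added after seeing the data, and its counts also stayed within that range. With the start end alone olaparib in RKO gained 0 (11.5% of all genes). With the other shControl list untreated shMETTL3 in RKO gained 1 gene, POLA2 (1.8% of all genes), and olaparib in RKO gained 0 (2.99%). With intervals at or above the median score of their list, olaparib in shControl lost 6 of 36 (17.1% of all genes) and gained 1 of 7 (4.84%) in LOVO and gained 7 of 22 (9.93%) in RKO. There shMETTL3 under olaparib lost 1 of 31 (6.43%) and gained 6 of 12 (13.1%) in LOVO and lost 4 of 26 (11.5%) and gained 8 of 17 (10.9%) in RKO. A gene just under the median in 1 list then counts as closed, and the cause of each change was not tested.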
